A study of Mus musculus with 2 samples.

Results

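Krt7, Krt8, Krt18 and Krt19 encode the keratins of simple epithelia, and their levels are given here across the cell classes of the mouse submandibular gland, a major salivary gland. They are 4 of the 27998 genes counted, chosen by name as the simple epithelial members of the keratin family. The cells came from 1 p63 KO mouse library and 1 p63 wild-type mouse library, both of adult animals aged 12 weeks. Whole glands were dissociated and captured in droplets with the 10x Genomics 3' v2 chemistry. p63, the product of Trp63, is a transcription factor that basal cells of many epithelia depend on. The sources used here do not give how p63 was removed or whether glands were pooled. The source label calls the material epithelial progenitor cells, whereas markers of acinar, duct, myoepithelial, endothelial, fibroblast and immune cells were all detected. With 1 library per genotype, no difference between KO and wild-type could be tested, and all intervals are 95% intervals that cover counting error only.

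Keratins form the intermediate filaments of epithelial cells, and each filament pairs a type II with a type I keratin. Krt8 (type II) and Krt18 (type I) are the main pair of simple epithelia. Krt7 (type II) and Krt19 (type I) are added in many ductal epithelia, where Krt7 can share partners with Krt8. Basal cells of stratified and ductal epithelia instead carry Krt5 (type II) with Krt14 (type I), and Krt5 and Krt14 are known target genes of p63 in the epidermis. In salivary glands, Krt8 and Krt18 are known from acinar and luminal duct cells, Krt7 and Krt19 from ducts, and Krt5 and Krt14 from basal and myoepithelial cells.

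Krt7 (ENSMUSG00000023039; GRCm38 chromosome 15, 101411043 to 101430313, plus strand), Krt8 (ENSMUSG00000049382; 101996698 to 102004482, minus strand) and Krt18 (ENSMUSG00000023043; 102028180 to 102032027, plus strand) lie in one keratin cluster, among 26 protein-coding keratin genes on that chromosome. Krt18 is the only type I keratin gene known in the type II cluster, and the annotated starts of Krt8 and Krt18 are 23698 bp apart. Krt19 (ENSMUSG00000020911; chromosome 11, 100140810 to 100148665, minus strand) lies apart from them. Krt8 overlaps the antisense lincRNA Gm36026 by 271 bp and has a processed pseudogene, Krt8-ps, on chromosome 7; neither had a row in the counts, and the treatment of reads that match several places is not stated in these sources. The promoters of Krt7, Krt8 and Krt18 are shown because Krt8 and Krt18 had the most alike levels of the genes compared below and Krt7 differed from both. Each line gives 260 bases, 5′ to 3′ on the gene's strand, from 250 bases before to 10 bases after the RefSeq start (build GRCm38.p6), in the order chr15:101412153-101412412, chr15:102004333-102004592 and chr15:102027966-102028225. Capitals mark TATAAA on either strand and, likewise, the letters GGGCGG of a GC box.
Krt7: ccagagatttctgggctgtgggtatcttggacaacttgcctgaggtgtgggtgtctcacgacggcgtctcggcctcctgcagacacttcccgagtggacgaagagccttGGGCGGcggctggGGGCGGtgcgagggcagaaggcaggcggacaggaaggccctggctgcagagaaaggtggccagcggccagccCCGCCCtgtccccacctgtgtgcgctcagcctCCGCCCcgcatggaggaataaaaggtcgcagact
Krt8: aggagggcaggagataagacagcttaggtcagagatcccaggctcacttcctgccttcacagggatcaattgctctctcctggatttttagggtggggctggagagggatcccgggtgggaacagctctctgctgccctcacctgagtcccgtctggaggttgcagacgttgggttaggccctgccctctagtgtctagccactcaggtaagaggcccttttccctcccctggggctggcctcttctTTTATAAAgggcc
Krt18: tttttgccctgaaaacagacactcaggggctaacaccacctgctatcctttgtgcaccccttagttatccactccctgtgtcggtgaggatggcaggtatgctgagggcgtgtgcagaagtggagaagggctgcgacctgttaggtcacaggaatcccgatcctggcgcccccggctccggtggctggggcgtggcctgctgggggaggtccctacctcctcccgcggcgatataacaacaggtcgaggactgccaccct

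In the 300-base windows from which these lines come, Krt7 held 4 GC boxes and no TATAAA. Krt8 held no GC box and 2 overlapping matches of TATAAA, 1 on each strand, which begin 3 bases before the annotated start. Krt18 held neither. Of 32851 such mouse windows, 13.6% held TATAAA and 35.7% a GC box. The letters TGANTCA (an AP-1 site, in 7.81% of windows) and the half-site of the p53 family (in 8.36%) were in none of the 3 windows, which says only that these letters are absent there.

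The KO library held 4726 barcodes and 11828669 UMIs, and the wild-type library 1970 barcodes and 8811082 UMIs; a UMI tags 1 captured molecule, so counts do not scale with transcript length. After a filter on barcodes (200 genes or more, mitochondrial UMIs below 20%), 2423 KO cells with a median of 2088 UMIs and 1663 wild-type cells with a median of 3406 UMIs remained. The libraries shared 11 barcode sequences, 7 of them among kept cells. Trp63 had 20 UMIs (2.91 CPM, 1.78 to 4.49) in the kept KO cells and 149 UMIs (18.8 CPM, 15.9 to 22.1) in the kept wild-type cells. Counts below are summed over the cells of a class in a library and scaled to 1000000 UMIs of that class (CPM). A cell entered a class when it carried at least 3 markers of 1 list and stood clear of all other lists. None of the 4 keratins was a marker. Of kept cells, 1526 KO and 1197 wild-type cells met exactly 1 gate, and 834 and 933 of these were in 9 epithelial classes. Names end in "-like" since RNA markers alone support them. The class called striated or excretory duct-like was led by Duox2, Duoxa2 and Slc5a5, which were not on its marker list.

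Keratin UMIs were also found in immune-gated cells, which should lack these genes; the part of free RNA and of doublets in them was not tested. Krt18 stood at 507 CPM (447 to 574) in 302 KO immune cells and 1190.2 CPM (1081 to 1307) in 119 wild-type immune cells. Krt8 stood there at 198 CPM (161 to 241) in KO and 586 CPM (510 to 669) in wild-type, and Krt7 at 34.0 CPM (19.8 to 54.4) in KO and 204 CPM (161 to 256) in wild-type. All 3 were thus lower in KO than in wild-type immune cells, by more than their counting intervals. The proportions of the keratins there were close to those of the epithelial cells of the same library. Krt7 made up 14.7% of Krt7 and Krt8 UMIs in KO immune cells (8.78 to 22.4%) and 14.9% in KO epithelial cells (14.0 to 15.8%). The same share was 25.9% in wild-type immune cells (20.9 to 31.3%) and 28.0% in wild-type epithelial cells (27.0 to 29.1%). Krt18 UMIs per Krt8 UMI were 2.57 in KO immune and 2.49 in KO epithelial cells, and 2.03 in wild-type immune and 2.09 in wild-type epithelial cells. The UMIs were spread unevenly over the immune cells, since 1 cell held 29 of the 254 Krt18 UMIs in KO and 1 held 51 of the 437 in wild-type. In macrophage-like cells the median Krt18 level was 0 CPM in KO and 300 CPM in wild-type, and the 90th percentile 991 CPM in KO and 3234 CPM in wild-type. The summed levels of the immune cells are called background here. Whether a class at or below that level expresses the gene was not tested.

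By UMIs, Krt18 was the most abundant of the 4 keratins in every epithelial class of both libraries, Krt8 was next, level with Krt7 within counting error in wild-type striated or excretory duct-like cells, and Krt8 was highest in Cldn4 duct-like cells. Csn3 and F3 were among the leading genes of these cells. Krt18 stood there at 7471 CPM (7129 to 7826) in 70 KO cells and 6163 CPM (5881 to 6455) in 63 wild-type cells. Krt8 stood at 3746 CPM (3505 to 3999.8) in the KO and 2985 CPM (2789 to 3191) in the wild-type Cldn4 duct-like cells. The interval of Krt18 in KO Cldn4 duct-like cells overlaps that of KO intercalated duct-like cells (7590.0 CPM, 7272 to 7918), so these 2 classes were not ordered in KO. In wild-type the intercalated duct-like cells were next, at 4053 CPM of Krt18 (3893 to 4217) and 2216 CPM of Krt8 (2099 to 2339).

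The lowest epithelial levels of the pair were those of secretoglobin acinar-like cells, which are filled with secretory transcripts. Krt18 stood at 938 CPM (841 to 1042) in 22 KO cells and 280 CPM (250 to 314) in 92 wild-type cells, and Krt8 at 295 CPM (242 to 356) in KO and 130 CPM (109 to 153) in wild-type. The wild-type values lie below the wild-type immune background for both genes, and the KO values lie above the KO background. The other epithelial classes lay between these extremes, Krt18 from 2611 CPM in myoepithelial-like to 5952 CPM in acinar-like cells in KO, and from 1863 CPM in acinar-like to 3844 CPM in ionocyte-like cells in wild-type. For Krt18, acinar-like cells therefore stood below only Cldn4 and intercalated duct-like cells among the 9 epithelial classes in KO, and above only secretoglobin acinar-like cells in wild-type, where their interval overlaps that of granular tubule-like cells.

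**Figure D1:**
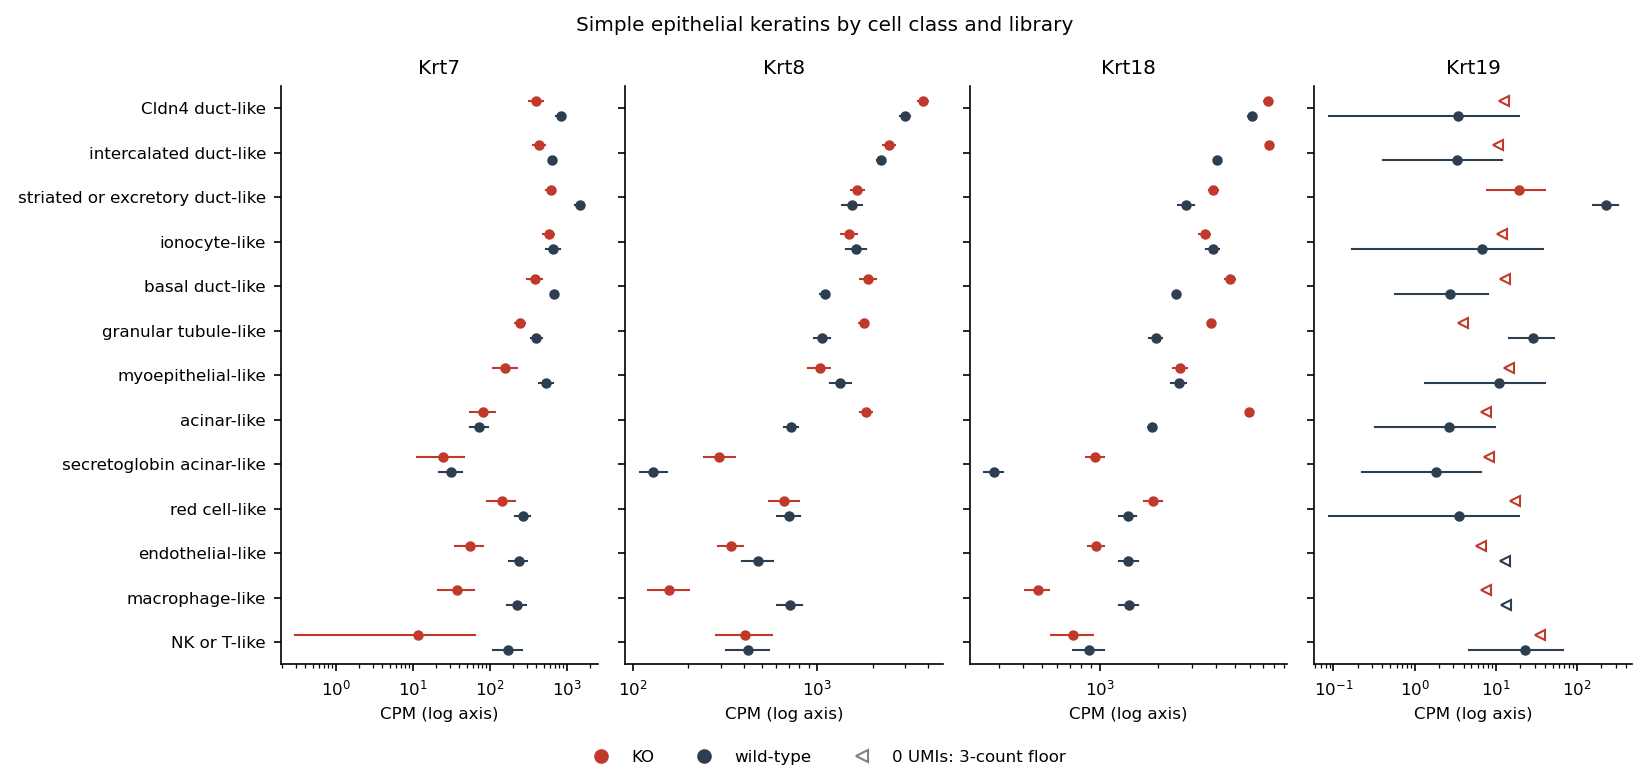
Level of each keratin (CPM on log axes, points; lines are exact Poisson 95% intervals of counting) in 13 cell classes, KO above wild-type; open triangles mark classes with 0 UMIs at the 3-count floor. Krt8 peaks in Cldn4 duct-like cells, Krt7 in the striated or excretory duct-like cells of wild-type, and Krt19 is above 100 CPM in wild-type striated or excretory duct-like cells alone among the classes shown.

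Krt18 was detected in nearly all epithelial cells, and Krt8 in somewhat fewer. With each cell thinned to 1000 UMIs, 87.4% of KO and 74.6% of wild-type epithelial cells had a Krt18 UMI, against 26.2% of KO and 33.6% of wild-type immune cells. Unthinned, the epithelial shares were 95.9% in KO and 94.4% in wild-type. For Krt8 the thinned shares were 63.1% of KO and 56.1% of wild-type epithelial cells, against 11.6% of KO and 29.4% of wild-type immune cells. In the intercalated duct-like class the pair was found together in 82.4% of KO cells (69.1 to 91.6%) and 79.7% of wild-type cells (71.5 to 86.4%) at 1000 UMIs. Krt8 without Krt18 was seen in 0 of 51 KO cells of that class, which by the floor of 3 counts allows a share of up to 5.88%, and in 4.88% of wild-type cells (1.81 to 10.3%). Of myoepithelial-like cells, the contractile cells around the acini, 61.3% of 75 KO and 52.6% of 38 wild-type cells had a Krt18 UMI at that depth.

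Between the genotypes, Krt18 was higher in KO than in wild-type acinar-like cells, which make the gland's fluid and secreted proteins. It stood at 5952 CPM (5713 to 6199) in 55 KO acinar-like cells and 1863 CPM (1766 to 1963) in 154 wild-type acinar-like cells, a ratio of 3.20 (2.99 to 3.42). A ratio is called past 2-fold here when the gene has at least 50 UMIs in the class and its interval lies wholly beyond 2-fold, as here. The median acinar-like cell had 4963 CPM of Krt18 in KO and 1822 CPM in wild-type, and the lower quartile in KO (3649 CPM) lay above the upper quartile in wild-type (2707 CPM). The ratio was 3.13 (2.69 to 3.65) at 1000 UMIs per cell and stayed past 2-fold under all 8 alternatives that could be computed, between 2.13 and 3.27. The make-up of the class differed between the libraries. KO acinar-like cells had a median of 5909 UMIs, and 35 of 55 had just 3 markers on. Wild-type ones had a median of 3857 UMIs, and 78 of 154 had just 3 on. Smgc, Gm14002 and Lman1l led the KO cells, and Dcpp3, 5530400C23Rik and Fgb the wild-type ones, with Smgc among the 10 leading genes of both. The part of this make-up in the ratio was not tested. Krt18 in immune cells was lower in KO than in wild-type, and the part of this background in the acinar-like ratio was also not tested.

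Krt8 in the same cells stood at 1840.2 CPM (1708 to 1979.6) in KO and 720.1 CPM (661 to 783) in wild-type, a ratio of 2.56 (2.28 to 2.86). This value rested in part on 1 KO cell with 18830 UMIs, which held 238 of the 720 Krt8 UMIs and 429 of the 2329 Krt18 UMIs. Without the cell with most Krt8 in each library, Krt8 stood at 1294 CPM in KO and 697 CPM in wild-type, a ratio of 1.86 (1.64 to 2.10) that no longer passed 2-fold. Krt18 without its highest cells still passed, at 2.80 (2.61 to 3.01). The share of acinar-like cells with a Krt8 UMI at 1000 UMIs was 49.1% in KO and 51.3% in wild-type. Krt8 and Krt18 were thus called higher in acinar-like cells, where 4.57% of 1905 genes were, and the call of Krt8 did not hold in 5 of 8 alternatives.

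In the other 4 epithelial classes that had 50 cells or more per library, no ratio of Krt8 or Krt18 was called past 2-fold, but each interval lay above 1. In either direction, 3.18% of genes were called in granular tubule-like, 4.01% in intercalated duct-like, 3.62% in Cldn4 duct-like and 4.01% in basal duct-like cells. Krt18 in granular tubule-like cells, duct cells that make kallikreins and growth factors, stood at 3783 CPM (3646 to 3923) in 294 KO cells and 1942 CPM (1805 to 2087) in 135 wild-type cells, a ratio of 1.95 (1.80 to 2.11). In basal duct-like cells Krt18 stood at 4712 CPM (4435 to 5002) in 62 KO cells and 2486 CPM (2393 to 2581) in 249 wild-type cells, a ratio of 1.90 (1.76 to 2.04). In intercalated duct-like cells the ratio of Krt18 was 1.87 (1.77 to 1.99) and that of Krt8 was 1.10, with an interval from just above 1 to 1.21. In Cldn4 duct-like cells the ratio was 1.21 for Krt18 (1.13 to 1.30) and 1.25 for Krt8 (1.14 to 1.38). Krt18 was thus higher in KO in all 4 classes, from 1.21 to 1.95 times, and the ratio of Krt8 ranged from 1.10 in intercalated duct-like to 1.72 (1.53 to 1.92) in basal duct-like cells. After thinning, the Krt8 levels of basal duct-like cells were 1242 CPM in KO and 1076 CPM in wild-type. Among classes with fewer than 50 cells in a library, ionocyte-like cells had 3509 CPM of Krt18 in 87 KO cells and 3844 CPM in 37 wild-type cells, and myoepithelial-like cells 2611 CPM in KO and 2559 CPM in wild-type, with overlapping intervals in both classes. At 1000 UMIs per cell, ionocyte-like cells had 3805 CPM in KO (3406 to 4237) and 3189 CPM in wild-type (2640 to 3819), and myoepithelial-like cells 1787 CPM in KO (1497 to 2116) and 2211 CPM in wild-type (1763 to 2737), again overlapping. Striated or excretory duct-like cells had 3868 CPM of Krt18 in 118 KO cells and 2802 CPM in 42 wild-type cells, a ratio of 1.38 (1.24 to 1.54). In secretoglobin acinar-like cells the ratio of Krt18 was 3.34 (2.86 to 3.91), against a wild-type level that is itself below background.

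**Figure D2:**
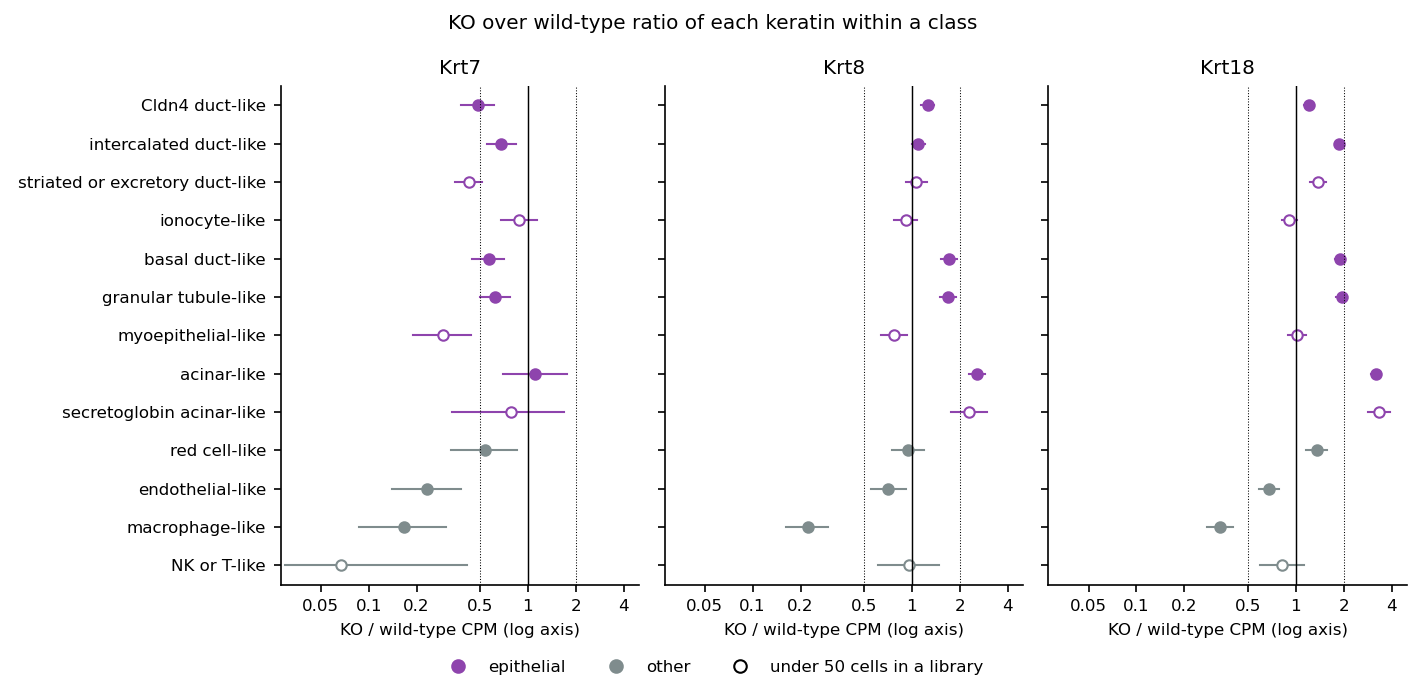
KO over wild-type ratio of CPM for Krt7, Krt8 and Krt18 in 13 classes (log axis; lines are exact 95% intervals of counting, dotted lines mark 2-fold, open points have under 50 cells in a library). Krt18 of acinar-like cells sits at 3.20 and Krt7 lies left of 1 in all classes but acinar-like; the interval of Krt7 in NK or T-like cells runs on past the left edge.

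The level of Krt18 relative to Krt8 also differed in part of the classes. In intercalated duct-like cells there were 3.11 Krt18 UMIs per Krt8 UMI in KO (2.86 to 3.40) and 1.83 in wild-type (1.71 to 1.96). In acinar-like cells there were 3.23 in KO (2.97 to 3.52) and 2.59 in wild-type (2.34 to 2.86). Cldn4 duct-like cells, with 1.99 in KO (1.84 to 2.16) and 2.06 in wild-type (1.90 to 2.24), and ionocyte-like cells, with 2.36 in KO and 2.37 in wild-type, had overlapping intervals. A ratio of UMIs of 2 genes depends on how well each is captured, so its difference between classes or libraries, and not its size, is what is compared.

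Of the epithelial classes, Krt7 was lowest in both acinar ones. In the duct classes other than the ionocyte-like one, Krt7 differed between the genotypes in the other direction from Krt18. In striated or excretory duct-like cells Krt7 stood at 621 CPM (543 to 708) in 118 KO cells and 1466 CPM (1281 to 1669.9) in 42 wild-type cells, its highest level in either library, a ratio of 0.424 (0.351 to 0.512). This class had under 50 wild-type cells, and its make-up differed. A Duox2 UMI was found in 16 of its 118 KO and 16 of its 42 wild-type cells. Krt5, Krt14, Krt15 and Krt17 together stood there at 72.1 CPM in KO and 1855 CPM in wild-type. The part of this make-up in the ratio was not tested. Acinar-like cells had 81.8 CPM (55.9 to 115) in KO and 73.3 CPM (55.2 to 95.5) in wild-type, and the wild-type value lies below the wild-type immune background of 204 CPM. Set against acinar-like cells of the same library, Krt7 was called more than 2-fold higher in each of 3 duct classes in both libraries. In intercalated duct-like cells it was 5.36 times as high in KO (3.61 to 8.18) and 8.78 times in wild-type (6.61 to 11.9), where 8.55% and 18.9% of genes were called higher. In Cldn4 duct-like cells it was 4.91 times as high in KO (3.26 to 7.58) and 11.3 times in wild-type (8.42 to 15.5), with 12.2% and 16.8% of genes called. In striated or excretory duct-like cells it was 7.60 times as high in KO (5.23 to 11.4) and between 14.8 and 27.4 times in wild-type, with 11.4% and 11.6% of genes called. Granular tubule-like, basal duct-like and ionocyte-like cells had 3.03, 4.65 and 7.09 times the acinar-like level in KO and 5.46, 9.15 and 9.03 times in wild-type. Myoepithelial-like cells, which are not duct cells, had 1.94 times that level in KO (1.16 to 3.26) and 7.40 times in wild-type (5.27 to 10.5).

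In Cldn4 duct-like cells Krt7 stood at 402 CPM (325 to 491) in KO and 831 CPM (729 to 942) in wild-type, a ratio of 0.484 (0.378 to 0.615). In intercalated duct-like cells it stood at 439 CPM (365 to 523) in KO and 644 CPM (582 to 712) in wild-type. In granular tubule-like cells it stood at 248 CPM (214 to 285) in KO and 401 CPM (340 to 469) in wild-type. None of these passed 2-fold by its interval, but each lay wholly below 1. Basal duct-like cells had 381 CPM of Krt7 (305 to 469) in KO and 671 CPM (624 to 722) in wild-type, a ratio of 0.567 (0.449 to 0.709). In that class the thinned levels were further apart, at 210 CPM in KO and 691 CPM in wild-type, and 19.4% of KO and 46.2% of wild-type cells had a Krt7 UMI. The Krt7 background of immune cells also differed, at 34.0 CPM in KO and 204 CPM in wild-type, and its part in these differences was not tested.

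In smaller classes, myoepithelial-like cells had 159 CPM of Krt7 (109 to 223) in KO and 543 CPM (441 to 661) in wild-type, a ratio of 0.292 (0.191 to 0.438) that was past 2-fold, as were those of 2.33% of 1074 genes. The KO value is above the KO immune background and the wild-type value above the wild-type one. Ionocyte-like cells, which are marked by Foxi1 and Ascl3, had 580 CPM of Krt7 (490 to 681) in KO and 662 CPM (538 to 807) in wild-type, with overlapping intervals. Over all epithelial-gated cells the ratio of KO to wild-type was 0.704 (0.651 to 0.761) for Krt7, 1.57 (1.51 to 1.63) for Krt8 and 1.87 (1.82 to 1.92) for Krt18, where the median gene was at a log2 ratio of 0.14 (with 10 CPM added to both sides).

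As a share of the 2 type II simple keratins, Krt7 was lower in KO in most classes. It made up 16.8% of Krt7 and Krt8 UMIs in KO basal duct-like cells (13.7 to 20.3%) and 38.0% in wild-type ones (35.8 to 40.2%). In granular tubule-like cells it made up 12.2% in KO (10.6 to 13.9%) and 27.5% in wild-type (23.8 to 31.4%), and in Cldn4 duct-like cells 9.69% in KO (7.92 to 11.7%) and 21.8% in wild-type (19.4 to 24.3%). The intervals overlapped in ionocyte-like cells, with 28.1% in KO (24.3 to 32.1%) and 29.0% in wild-type (24.2 to 34.1%), and in secretoglobin acinar-like cells, with 7.69% in KO (3.58 to 14.1%) and 19.4% in wild-type (13.8 to 26.1%). In striated or excretory duct-like cells it made up 27.4% in KO (24.4 to 30.6%) and 48.7% in wild-type (44.1 to 53.4%), the largest share of any epithelial class.

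**Figure D3:**
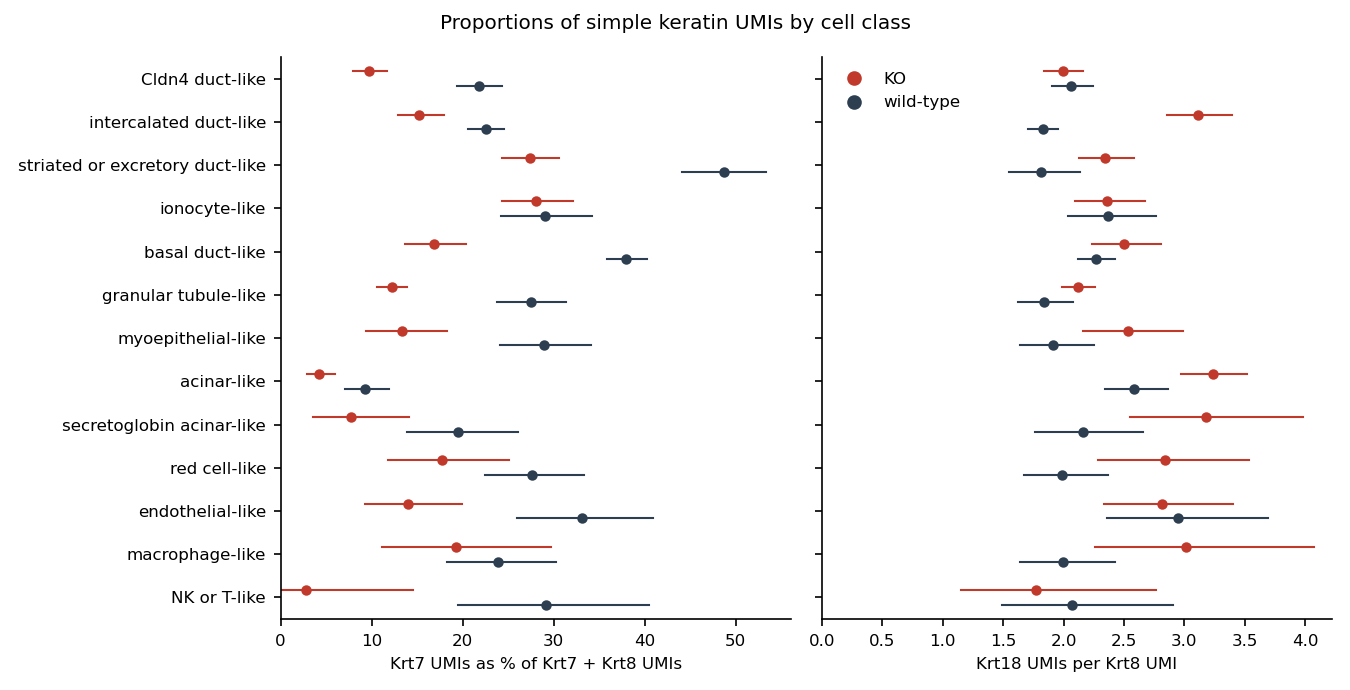
Left, Krt7 UMIs as a percentage of Krt7 and Krt8 UMIs; right, Krt18 UMIs per Krt8 UMI, in 13 classes, KO above wild-type (points; lines are exact 95% intervals of counting). The share of Krt7 is lower in KO in the basal duct-like (16.8% in KO, 38.0% in wild-type) and granular tubule-like classes, and about equal in the ionocyte-like class (28.1% in KO, 29.0% in wild-type).

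Krt19 was rare in this gland, and its UMIs in wild-type lay mostly in cells with Duox2 UMIs. In all kept cells it had 13 UMIs in 12 KO cells (1.89 CPM, 1.01 to 3.24) and 74 UMIs in 38 wild-type cells (9.33 CPM, 7.33 to 11.7). In striated or excretory duct-like cells it had 7 UMIs in 6 of 118 KO cells (19.4 CPM, 7.81 to 40.0) and 35 UMIs in 9 of 42 wild-type cells (227 CPM, 158 to 316). Granular tubule-like cells held 0 UMIs in 294 KO cells, where the floor of 3 counts is 3.93 CPM, or a share of up to 1.02% of cells, and 11 UMIs in 10 of 135 wild-type cells (28.8 CPM, 14.4 to 51.5). The other 7 epithelial classes held 0 UMIs in KO and 1 to 3 UMIs each in wild-type. Immune cells held 0 Krt19 UMIs in KO and 3, all in 1 cell, in wild-type. Over all epithelial-gated cells the ratio was 0.180 (0.069 to 0.394), which was called lower, as 2.12% of 8258 genes were; with 7 KO and 59 wild-type UMIs it rests on few cells. The call was lost with classes taken from clusters (0.637, 0.292 to 1.32), after thinning (0.249, 0.0612 to 0.755) and with a stricter filter. Each of these left fewer than the 50 UMIs that a call needs, with 4 KO and 18 wild-type UMIs after thinning. In the clusters, a wild-type cluster of 33 cells that held 48 of the 74 Krt19 UMIs had no class name. It was left out of the epithelial cells there, so the 0.637 does not compare the same cells.

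When wild-type cells were clustered without the 4 keratins, 1 cluster of 33 cells, led by Duox2 and Duoxa2, held 48 of the 74 Krt19 UMIs, in 15 cells, with up to 11 in a cell. No KO cluster had Duox2 among its 10 leading genes. Of the 33 KO cells with a Duox2 UMI, 26 were in a cluster of 474 cells named granular tubule-like by its markers, which held 7 of the 13 KO Krt19 UMIs, so the cells compared next fell in unlike clusters in the 2 libraries. Duox2 encodes an oxidase that makes hydrogen peroxide at the cell surface, and Duoxa2 its maturation factor. Cells with a Duox2 UMI were therefore set side by side; this selection was made after the Krt19 values had been seen and is a description. There were 33 such cells in KO and 56 in wild-type. Krt19 had 6 UMIs there in KO (62.5 CPM, 22.9 to 136) and 48 in wild-type (214 CPM, 158 to 283). Krt7 in the same cells stood at 1354 CPM (1131 to 1608) in KO and 1367 CPM (1219 to 1529) in wild-type, and Krt8 at 1499.7 CPM (1265 to 1766) in KO and 1359 CPM (1210.3 to 1519.8) in wild-type. The intervals of Krt7 and Krt8 thus overlapped in these cells in both libraries, and the level of Krt7 overlapped between the genotypes there, unlike in the whole striated or excretory duct-like class. Krt18 in the cells with a Duox2 UMI stood at 3801 CPM (3421 to 4212) in KO and 2690 CPM (2480 to 2914) in wild-type. In cells with at least 3 Duox2 UMIs, Krt7 stood at 1738 CPM (1436 to 2085) in 22 KO cells and 2323 CPM (2038 to 2636) in 33 wild-type cells. Krt8 stood there at 1349 CPM (1085 to 1658) in KO and 2149 CPM (1875 to 2451) in wild-type. Krt18 stood there at 2937 CPM (2540 to 3378) in KO and 3929 CPM (3556 to 4331) in wild-type. The direction of Krt18 thus depended on this cut, and the cause was not tested.

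**Figure D4:**
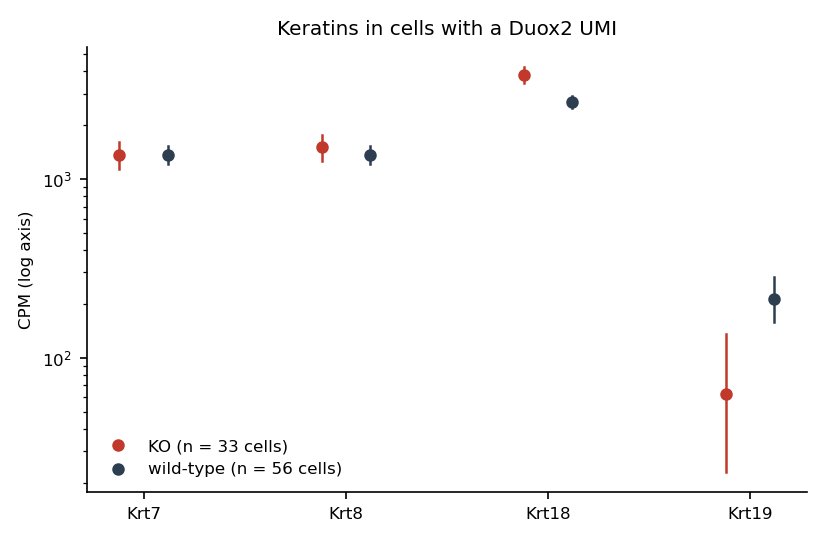
Level of the 4 keratins (CPM, log axis; points with exact Poisson 95% intervals of counting) in the 33 KO and 56 wild-type cells with a Duox2 UMI, KO left of wild-type. Krt7, at 1354 and 1367 CPM, is level with Krt8, and Krt19 is at 62.5 CPM in KO and 214 CPM in wild-type.

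Outside the epithelium, Krt7 of endothelial-like cells was called lower in KO, at 55.1 CPM (35.7 to 81.4) in 255 KO cells and 236 CPM (177 to 308) in 60 wild-type cells, as 2.06% of 1797 genes were. In macrophage-like cells 3 keratins were called lower, as 5.27% of 1480 genes were. Krt7 stood there at 37.4 CPM in 241 KO cells and 223 CPM in 77 wild-type cells, Krt8 at 157 CPM in KO and 708 CPM in wild-type, and Krt18 at 473 CPM in KO and 1412 CPM in wild-type. Macrophage-like cells were 241 of the 302 KO and 77 of the 119 wild-type immune cells. These values therefore make up most of the immune background and cannot be set against it. General epithelial genes moved in the same direction there: in macrophage-like cells Epcam, an adhesion molecule of epithelia, stood at 67.3 CPM in KO and 236 CPM in wild-type, and Spint2, an epithelial protease inhibitor, at 49.8 CPM in KO and 240.5 CPM in wild-type. Of the 13 genes of the epithelial list 3 had enough UMIs in that class, 2 were called lower, and their median log2 ratio was -1.67, against 0.08 for all genes of the class. Krt14 had 2 UMIs in KO and 149 in wild-type endothelial-like cells.

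The other keratins showed the largest ratios in the family. Over all epithelial-gated cells 6 of 50 other keratin genes had at least 50 UMIs, of which 1 was called higher and 4 lower, against 3.55% and 2.12% of all genes. Krt23, a type I keratin, was higher, at 397 CPM in KO and 142 CPM in wild-type, a ratio of 2.79 (2.54 to 3.08). In acinar-like cells it stood at 588 CPM in KO and 153 CPM in wild-type (ratio 3.83, 3.05 to 4.84), the same direction as Krt18. Krt5 had 7 UMIs in KO (2.26 CPM) and 495 in wild-type (106 CPM), Krt15 had 1 in KO and 628 in wild-type, Krt14 stood at 133 CPM in KO and 757 CPM in wild-type, and Krt17 at 228 CPM in KO and 565 CPM in wild-type. These 4 are the keratins of basal cells, and they are also markers of the basal duct-like class, which made up 62 of 834 KO and 249 of 933 wild-type epithelial cells. Within that class Krt5 had 1 UMI in KO and 394 in wild-type, and Krt15 0 in KO and 540 in wild-type. Krt14 stood there at 1111 CPM in KO and 2465 CPM in wild-type (ratio 0.451, 0.395 to 0.513), and Krt17 at 1610.0 CPM in KO and 1897 CPM in wild-type (ratio 0.849, 0.758 to 0.949), neither called past 2-fold. Cells entered this class in part by these same keratins, each set against its own library. The levels of Krt14 and Krt17 within it therefore cannot show how far basal cells kept them. In myoepithelial-like cells, of which wild-type had 38, Krt14 stood at 548 CPM in KO and 1844 CPM in wild-type (ratio 0.297, 0.238 to 0.369). Krt5 had 1 UMI in KO and 49 in wild-type myoepithelial-like cells. Both were called lower, as 2.33% of 1074 genes of that class were. Krt17 stood at 1361 CPM in KO and 1263 CPM in wild-type myoepithelial-like cells, with an interval of the ratio that holds 1. Of the UMIs of the 4 simple and 4 basal keratins, the simple ones made up 94.6% in KO epithelial cells (94.3 to 94.9%) and 71.2% in wild-type ones (70.7 to 71.8%). In myoepithelial-like cells, whose own marker list held no keratin, they made up 66.4% in KO (63.7 to 69.1%) and 56.2% in wild-type (53.5 to 58.7%). These cells also had to lead the basal duct list, which holds the 4 basal keratins. Cells rich in them could thus be left out, and this share does not stand apart from the gate.

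Genes that anchor or accompany keratin filaments were counted in the same way. Of 14 desmosome and plaque genes, 13 had at least 50 UMIs in epithelial-gated cells, 1 was called higher and 0 lower, with a median log2 ratio of 0.19 against 0.14 for all genes. Pkp4, an armadillo-repeat protein of cell junctions, was the one called, at 224 CPM in KO and 99.0 CPM in wild-type, with a ratio of 2.26 overall and of 3.16 (2.10 to 4.71) in basal duct-like cells. Dsc3, a desmosomal cadherin, had more UMIs in KO in single classes, with 55 UMIs in KO and 3 in wild-type striated or excretory duct-like cells (ratio 7.84, 2.55 to 39.2) and 78 in KO and 6 in wild-type ionocyte-like cells (ratio 7.53, 3.31 to 21.2). These classes had 42 and 37 wild-type cells, under the 50 set for a comparison. The share of all genes called in them is not given here. Perp, a desmosomal membrane protein and known p63 target, stood at 468 CPM in KO and 410.2 CPM in wild-type. In acinar-like cells Perp was called higher, at 463 CPM in KO and 175 CPM in wild-type, a ratio of 2.65 (2.10 to 3.34), in the direction of Krt18. All 13 general epithelial genes had enough UMIs; Elf3, an epithelial transcription factor, was called higher, at 214 CPM in KO and 66.0 CPM in wild-type, and 0 were called lower (median log2 ratio 0.30). In acinar-like cells 8 of the 13 had enough UMIs and 0 were called, with a median of 0.80 against 0.09 for all genes. Of 8 keratin-binding and chaperone genes 7 had enough UMIs and 0 were called; Hspb1, a small heat shock protein, stood at 3063 CPM in KO and 2786 CPM in wild-type. Of 8 other intermediate filament genes 3 had enough UMIs and 0 were called.

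Across 27 class-by-library sums, the genes most like each keratin were found among 5861 genes by Pearson's r of log2(CPM + 10). The gene most like Krt8 was Krt18 (r = 0.957), followed by Perp, Cdh1, Epcam and Lmo7. For Krt18 these were Krt8, Epcam, Casz1, Perp and Rab15. Genes most like Krt7 included Dsc2, a desmosomal cadherin, Slc16a11, Mob3b and Epcam, and Krt7 was less like Krt8 (r = 0.802). Krt19 was most like Duoxa2 (r = 0.868) and Duox2 (r = 0.805), then G6pdx, Cat and C1galt1, and had r = 0.083 with Krt18. The sums of 1 library share depth and background, so these are descriptions without a test.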

How the data were processed

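For each library the authors deposited a table of UMI counts, unnormalized, with genes by barcodes. The build mm10 and the tools Seurat 3.1.2, bcl2fastq 2.19.1 and Cell Ranger 2.1.0 stand in the submitters' processing notes, which assign no roles. Symbols came from GENCODE M21 (27645 of 27998 genes matched). The genes, marker lists and related lists were chosen with earlier results of these data known. Kept barcodes had 200 genes or more and less than 20% mitochondrial UMIs. A marker was on where its share of a cell's UMIs exceeded 2 times its library share; a gate needed at least 3 of 1 list's markers on, a z score of at least 1 over the cells of the library and a lead of 0.5 over the next list, thresholds set after the data had been seen. Cells in no gate (803 KO, 344 wild-type) or in more than 1 (94 KO, 122 wild-type) enter no class. Scrublet marked 4 KO and 1 wild-type cells, so doublets were in effect not removed. UMIs were summed per class and library, with exact Poisson, conditional ratio and Clopper-Pearson binomial intervals at 95%; floors are 3 counts per library. UMIs count molecules, so the intervals cover counting error only. Compared were the 8 classes (5 epithelial) that had 50 cells or more per library. Thinning drew 1000 UMIs per cell, and no kept cell was shallower. Log2 ratios have 10 CPM added. Named genes were the 4 keratins, the 5 genes most like each across sums of at least 20 cells, and, of each related list, the 2 with most UMIs, those called, and other keratins with at least 50 UMIs. Some genes that this rule names are not reported here. Clustering used scanpy 1.11.5 and leidenalg 0.10.2, TMM edgeR 4.0.16, and the rest Python 3.11.15 with scipy 1.17.1. The ratio step was tested on simulated counts. Alternatives were no and stricter filters, clusters, thinning, TMM scaling, CPM without the most abundant genes, doublet removal, and 3 chosen after seeing the data: gates with 2 markers on, classes of at least 15 cells, and classes without the cell richest in the keratin.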

Additional observations from a re-analysis of the deposited data

Results flagged for a closer look

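Krt8 and Krt18 differed between KO and wild-type in opposite directions in 2 kinds of cells, and this difference between the classes was not tested. In acinar-like cells the KO over wild-type ratio was 2.56 for Krt8 and 3.2 for Krt18, and in macrophage-like cells it was 0.222 for Krt8 and 0.335 for Krt18. Macrophage-like cells make up most of the immune cells that give the background described above, so their levels cannot be set against it. Whether the macrophage-like ratios reflect expression in those cells was not tested. Krt8 and Krt18 were also higher in the KO than in the wild-type barcodes that failed the filter on genes and mitochondrial UMIs, which enter no comparison. Krt8 stood at 1033 CPM (1005 to 1061) in 2303 KO and 734 CPM (679 to 793) in 307 wild-type barcodes of this kind, and Krt18 at 2140 CPM in KO and 1464 CPM in wild-type.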

How the results depend on the processing

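No paired analysis was possible because each genotype has 1 library. In epithelial-gated cells the ratio of Krt18 (1.87) was 1.68 without a filter on barcodes, 2.10 with the stricter filter, 2.04 with classes from clusters, 1.65 after thinning, 1.63 with TMM scaling, 1.76 without mitochondrial, haemoglobin and the 20 most abundant genes, 2.08 with gates of at least 2 markers and 1.93 as a mean over classes; that of Krt8 (1.57) was 1.45 without a filter, 1.35 after thinning, 1.37 with TMM scaling and 1.48 without the abundant genes. The ratio of Krt7 (0.704) was 0.603 with the stricter filter and 0.615 with TMM scaling. The ratio of Krt19 (0.180) was 0.052 with the stricter filter, 0.637 with classes from clusters and 0.617 as a mean over classes. The clusters left out the wild-type cluster with most Krt19 UMIs, which had no class name. The mean, for Krt18 as well, covered only the 5 epithelial classes compared, with 10 CPM added. It left out striated or excretory duct-like cells, which held all 7 KO and 35 of the 59 wild-type epithelial Krt19 UMIs. Neither value is thus directly comparable with 0.180. Of 24 keratin-by-class ratios, 2 were past 2-fold higher and 4 lower. The higher ones were Krt8 and Krt18 in acinar-like cells, where 4.57% of genes were called higher. The lower ones were Krt7 in endothelial-like cells, and Krt7, Krt8 and Krt18 in macrophage-like cells. There, 2.06% and 5.27% of genes were called lower, and no ratio of an epithelial class among the 24 was. The count of higher ones was 1 without a filter, 0 with the stricter filter (which left too few acinar-like cells to compare), 1 after thinning, 1 with TMM scaling and 1 without the cell richest in the keratin; that of lower ones was 8 without a filter and 2 after thinning. None of the called ratios turned direction under the alternatives that gave a value. Krt7 of acinar-like cells, which was not called in the classes as gated, was 1.12 there, 0.756 without a filter, 0.870 with TMM scaling, from just above 1 to 1.31 under 5 other settings and 3.09 with classes from clusters. By cluster, KO acinar-like cells held 10 Krt7 UMIs in a cluster of 120 cells and 120 in a cluster of 73 cells. The wild-type ones were a cluster of 194 cells with 38 Krt7 UMIs. A wild-type cluster of 106 cells held 181 Krt7 UMIs but had no class name. It shared the leading genes Abcc3 and Bst1 with the KO cluster of 73 cells. Acinar-like ratios from clusters thus may not compare the same cells. In red cell-like cells Krt18 (1.35) was 0.315 without a filter, and Krt8 (0.950) was 1.05 after thinning and 1.11 without the abundant genes. The causes were not tested. Few Krt19 UMIs and 1 library per genotype limit what can be said.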
